A study of Danio rerio with 30 samples.

Results

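Rab proteins are small GTPases that switch between a GTP-bound and a GDP-bound form and mark the membranes between which cargo moves. In the active form they recruit tethers and motors, so each step of secretion, recycling and endocytosis has its own Rab proteins. The zebrafish notochord secretes a collagen-rich sheath and the hatching gland stores proteolytic enzymes for later release, and both tissues depend on the early secretory pathway. The genes described here are the 77 features whose symbol is "rab" followed by a number and further letters or digits, with at least 20 unique molecular identifiers (UMIs) over 22 libraries, out of 26847 distinct symbols. Of these, 65 are GTPases and 12 are proteins that bind or regulate Rab proteins but share the symbol (7 rab11fip genes, rab3gap1, rab3gap2, rab3il1, rab3ip and rab5if). The lowest member was rab27b with 34 UMIs, and the symbols rab19 (18 UMIs), rab38b (16 UMIs) and rab32b (3 UMIs) fell under the minimum. By role, 15 members belong to the early secretory pathway, 13 to exocytosis, 11 to recycling, 7 to the early endosome, 6 to the late endosome and lysosome, 2 to lysosome-related organelles and 3 to the cilium, while 8 are little described.

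The series asked which transcription factors of the unfolded protein response and its relatives, xbp1, atf6, creb3l1 and creb3l2, drive the secretory program of notochord and hatching gland. The assay was droplet-based 3′ RNA sequencing of single cells from whole TL/AB embryos, about 30 of them pooled per library. At 12 hours post fertilization (hpf) there were 16 libraries in 12 groups. Crispants, injected at the 1-cell stage with Cas9 and guide RNA and therefore mosaic, lacked xbp1, atf6, creb3l1, creb3l2, or xbp1 with atf6 (1 library each). Uninjected creb3l1 homozygous mutants had 2 libraries. Further crispants were made in the creb3l1 mutant line: xbp1+creb3l2+creb3l1, creb3l2+creb3l1 and atf6+creb3l2+creb3l1 had 1 library each, and the quadruple embryos (xbp1, atf6 and creb3l2 crispant in the creb3l1 mutant) had 2. The controls were tyr crispants and uninjected wild type, with 2 libraries each. At 8 hpf, 6 libraries of 1 per group came from embryos injected with mRNA. The mRNAs atf6-N, creb3l1-N and creb3l2-N were given at 40 pg in xbp1 crispants, against mCherry at 40 pg in xbp1 crispants. The remaining pair had no crispant mutation and held creb3l2-full at 40 pg, against mCherry at 125 pg.

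Libraries held 37677042 to 120722910 UMIs at 12 hpf and 40560649 to 100654147 at 8 hpf, and no pair of libraries shared more than 0.388% of the smaller one's barcodes. Cells were assigned to tissue classes from marker genes, without the Rab genes. With doublets included, 24212 of 64631 cells at 12 hpf and 17635 of 19599 at 8 hpf fell in no named class. Orders of classes below are therefore among the named classes only, while levels outside a class include the unnamed cells. Notochord-like cells numbered 66 to 242 per library, with a summed level of 13 notochord markers of 6024 to 12649 CPM, the gene's UMIs scaled to the total of the class in that library. Hatching gland-like cells numbered 31 to 144, with 34656 to 49633 CPM of 12 hatching gland markers. The targeted mRNA was lower over all cells in libraries lacking atf6 (6.39 to 12.9 CPM, against 36.7 to 65.2 CPM in the others) and creb3l2 (3.96 to 6.89, against 14.04 to 22.3 CPM). It was also lower for xbp1 (115 to 289, against 318 to 484 CPM). The creb3l1 mRNA overlapped (3.53 to 13.7, against 7.14 to 8.73 CPM), and tags at the 3′ end do not check a mutation elsewhere in the gene. Replicates are libraries, so p-values measure spread between libraries, each a pool of embryos. At 12 hpf 8 of the 12 groups had 1 library. In the fit over all 16 libraries that spread therefore also holds departures from additive effects of the lost factors.

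In the 4 control libraries at 12 hpf the family covered a wide range of levels. CPM of 3′ tags count 1 tag per molecule, so genes can be compared without a length correction. Over all cells rab2a, which acts between the endoplasmic reticulum and the Golgi, was highest at 269 ± 18.3 CPM (mean ± SD, n = 4). The non-GTPase rab5if, whose human counterpart takes part in inserting membrane proteins into the endoplasmic reticulum, followed at 239 ± 48.2 CPM. Next came rab10 (polarized exocytosis) at 153 ± 20.8 CPM, rab1ab (endoplasmic reticulum to Golgi transport) at 133 ± 13.8 CPM and rab5ab (early endosome) at 102 ± 1.97 CPM. The ranges of rab2a (242 to 282 CPM) and rab5if (176 to 288 CPM) overlapped, as did those of rab10 (131 to 178 CPM) and rab1ab (114 to 145 CPM). The highest members of the other roles were rab11a for recycling (86.8 ± 4.996 CPM), rab34a for the cilium (32.7 ± 2.67 CPM), rab7a for the late endosome (26.9 ± 5.65 CPM), rab40c among the little described (19.6 ± 1.34 CPM) and rab32a for lysosome-related organelles (11.5 ± 2.22 CPM).

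Some members were concentrated in 1 tissue class. The epithelial recycling gene rab25a reached 80.9 ± 27.2 CPM in periderm-like cells (range 51.3 to 105 CPM), against 0.343 CPM in all cells outside the class. Periderm-like cells also led in the Golgi gene rab6bb (40.5 ± 18.3 CPM, against 1.03 CPM elsewhere) and in rab11al (20.1 ± 10.0 CPM, against 0.556 CPM elsewhere), a relative of the recycling gene rab11. The little-described rab36 stood at 152 ± 35.2 CPM in floor plate-like cells, against 4.95 CPM elsewhere. Its next class, somite muscle-like cells, held 20.5 ± 8.44 CPM. In basal epidermis-like cells rab42b averaged 46.7 ± 21.8 CPM, against 4.24 CPM elsewhere. There rab13, which acts at epithelial junctions, averaged 193 ± 27.4 CPM, against 67.5 CPM elsewhere. Neither was confined to this class. Ionocyte precursor-like cells held rab42b at 20.2 ± 9.56 CPM and rab13 at 130 ± 10.2 CPM. Periderm-like cells held rab42b at 15.6 ± 10.0 CPM, and notochord-like cells rab13 at 134 ± 25.1 CPM. All these are descriptions: each class was drawn from the same cells, though from other genes.

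Lysosome-related organelle genes marked the notochord. In the tyr 1, tyr 2, wild type 1 and wild type 2 libraries rab32a read 244, 200, 131 and 157 CPM in notochord-like cells. Outside the class it averaged 7.48 CPM, and its next classes were germ cell-like (102 ± 68.9 CPM, 51 UMIs), endoderm-like (67.5 ± 30.7 CPM) and tailbud-like cells (36.4 ± 4.37 CPM). Its relative rab38c read 5.13, 9.17, 3.48 and 7.26 CPM in notochord-like cells of the same libraries, on only 3, 30, 5 and 12 UMIs. The next class for rab38c, floor plate-like cells, averaged 0.229 CPM. The notochord was also the highest class for rab2a (684 ± 67.3 CPM), rab1ab (348 ± 88.3 CPM) and rab6a (194 ± 51.98 CPM), a Golgi gene. For rab2a the order went on with hatching gland-like (473 ± 46.8 CPM), neuron-like (364 ± 17.8 CPM) and floor plate-like cells (325 ± 50.3 CPM), the last pair lying within 1 SD of each other. For rab1ab hatching gland-like cells (323 ± 53.6 CPM) came within the spread of the notochord.

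The hatching gland was the highest class for rab3aa, a gene of regulated exocytosis. It read 41.4, 37.2, 24.6 and 42.3 CPM in the tyr 1, tyr 2, wild type 1 and wild type 2 libraries, and averaged 1.16 CPM outside the class. Hatching gland-like cells also led in rab4a, an early recycling gene (43.2 ± 15.4 CPM, against 9.34 CPM elsewhere), and in rab1ba (82.4 ± 18.2 CPM, against 21.4 CPM elsewhere). Notochord-like cells came within this spread, with 37.6 ± 16.9 CPM of rab4a and 66.6 ± 16.4 CPM of rab1ba. Periderm-like cells held 58.5 ± 20.8 CPM of rab1ba. The non-GTPase rab5if averaged 840 ± 189 CPM in the hatching gland and 569 ± 188 CPM in the notochord.

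**Figure D1:**
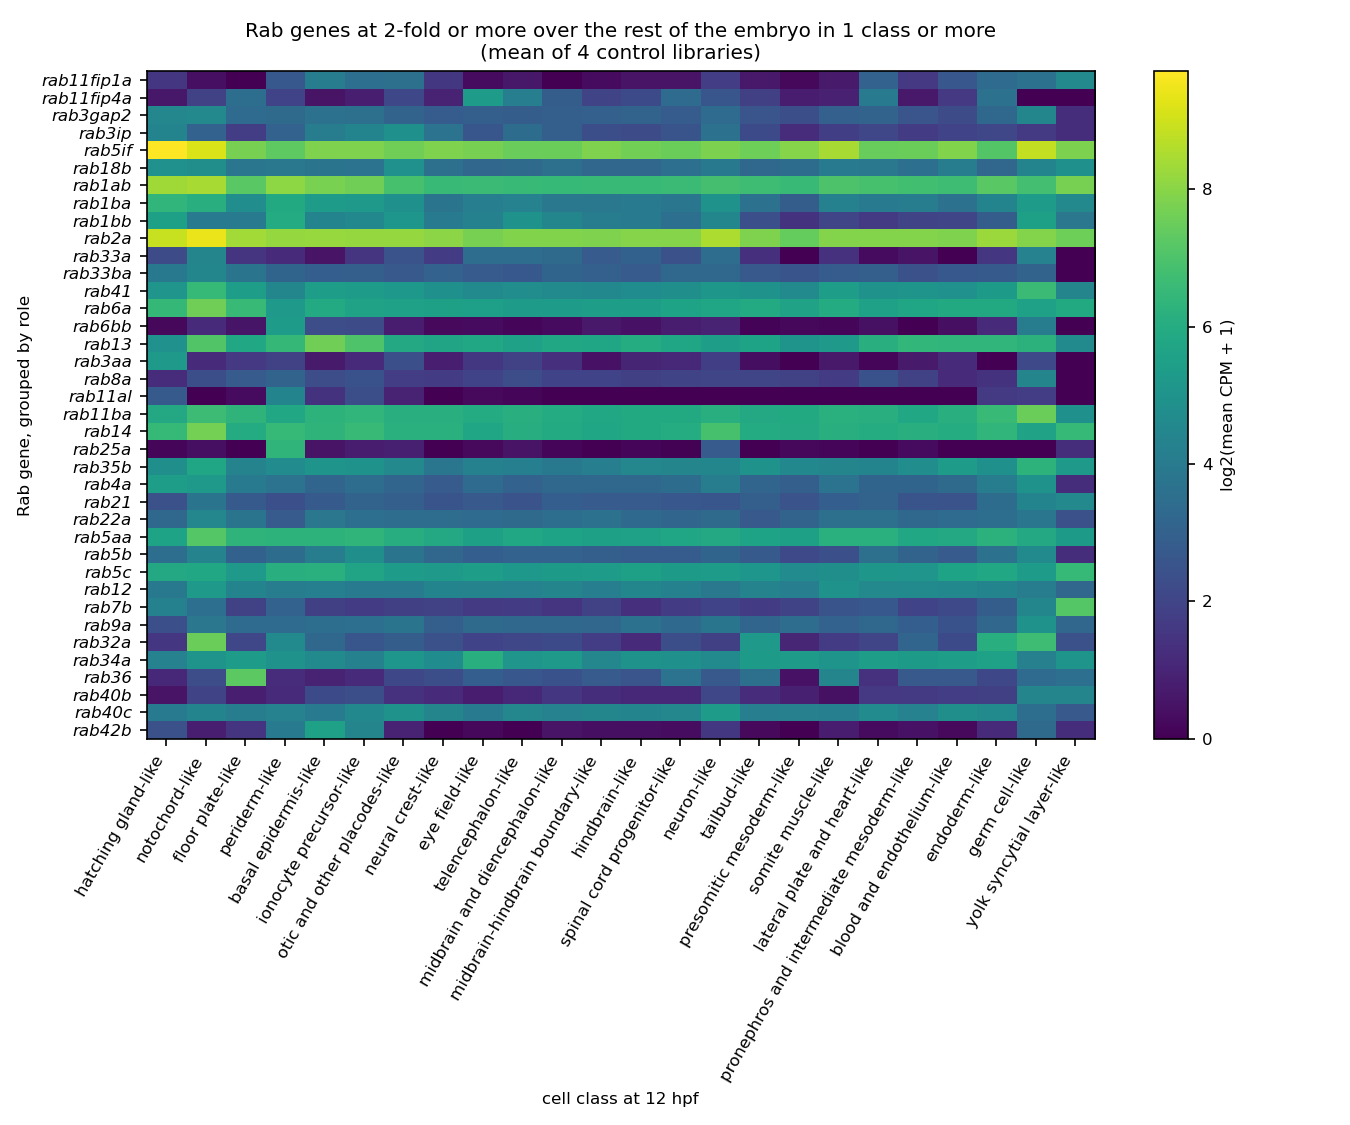
Level of Rab genes by tissue class at 12 hpf, as log2(mean CPM + 1) over the 4 control libraries, for members at 20 CPM or more and at least 2-fold above the remaining cells in some class. Cells that stand out include rab36 in floor plate, rab25a and rab6bb in periderm, rab3aa in hatching gland and rab7b in yolk syncytial layer (33 UMIs). Highest in notochord, rab32a is also raised in germ cell and endoderm, while rab2a and rab1ab are high in nearly all columns.

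Members also differed by class elsewhere. Eye field-like cells led in rab11fip4a, an effector of Rab11 (39.1 ± 18.2 CPM, against 4.56 CPM elsewhere), and held 66.5 ± 9.60 CPM of rab34a. Placode-like cells led in rab3ip, an exchange factor for Rab8 (28.7 ± 9.79 CPM, against 8.58 CPM elsewhere), and held rab18b at 29.2 ± 13.03 CPM, within the spread of the hatching gland (28.9 CPM). Ionocyte precursor-like cells held rab5b at 27.4 ± 10.1 CPM, against 9.13 CPM elsewhere, and neuron-like cells rab40c at 38.8 ± 8.34 CPM, against 19.3 CPM elsewhere. Germ cell-like and yolk syncytial layer-like classes rested on few tags: rab40b at 20.4 ± 19.2 CPM came from 14 UMIs and rab7b at 140 ± 168 CPM from 33 UMIs. In 10 further classes no member at 20 CPM or more reached 2-fold over the rest: the largest ratio of a class ran from 1.03 for rab40c in neural crest-like cells to 1.81 for rab1bb in telencephalon-like cells. In all, 64 pairs of a member and a class passed 20 CPM and a 2-fold ratio to the rest, against 57 over all 16 libraries and 52 with doublets kept.

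At 8 hpf only notochord-like, hatching gland-like and periderm-like cells were named, so the pattern could not be read in the other classes. Within the named classes only part of it was present. Values are given for mCherry at 40 pg in xbp1 crispants, then for mCherry at 125 pg without a crispant mutation. In periderm-like cells rab25a read 381 and 601 CPM, and rab6bb 54.9 and 52.5 CPM. In notochord-like cells rab32a read only 2.61 and 2.67 CPM, on 7 and 4 UMIs. In hatching gland-like cells rab3aa rested on 2 and 4 UMIs. These are values of 1 library each, with no test.

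Set against all other cells of the same control libraries, early secretory members were more often higher than lower in both secretory classes. An edgeR fit with the library as block called 38 of 68 members in hatching gland-like cells, 26 higher and 12 lower, where 51.7% of all genes were called (23.7% higher, 28.1% lower). It called 34 of 69 in notochord-like cells, 26 higher and 8 lower, where 45.1% were called (28.2% lower). Scaling by library totals, without TMM factors, gave 21 higher and 19 lower in the hatching gland, and 31 higher and 3 lower in the notochord. The median of all genes was −0.62 in place of −0.23 in the hatching gland and 0.00 in place of −0.25 in the notochord, and the members' median −0.05 in place of 0.34 and 0.55 in place of 0.30 (log2). These counts are descriptions, since the classes come from the same cells.

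By role, 8 of 14 early secretory members were higher in the hatching gland and 9 of 14 in the notochord. In the hatching gland rab1ba stood 2.38 ± 0.14 above the other cells (log2 fold change ± SE), rab1bb 1.85 ± 0.16, rab18b, of the endoplasmic reticulum and lipid droplets, 1.80 ± 0.16, rab1ab 1.78 ± 0.10, rab2a 1.29 ± 0.09 and rab6a 1.22 ± 0.12. Outside this role the hatching gland was higher in rab3aa (5.38 ± 0.21), the endosomal rab20 (3.12 ± 0.25), the late endosomal rab7b (2.95 ± 0.21), rab4a (2.66 ± 0.15), rab5if (2.37 ± 0.08) and rab3gap2 (1.92 ± 0.17), a subunit of the Rab3 GTPase-activating complex. In the notochord the early secretory genes rab6a (1.69 ± 0.12), rab1ba (1.42 ± 0.14), rab41 (1.28 ± 0.12), rab1ab (1.22 ± 0.11) and rab2a (1.18 ± 0.09) were higher. So were rab32a (4.28 ± 0.17), rab38c, rab3il1, an exchange factor for Rab3 and Rab8 in mammals (2.62 ± 0.20), rab4a (1.79 ± 0.18), rab14 (1.36 ± 0.11), rab5if (1.14 ± 0.09) and rab5aa (1.05 ± 0.12). Rab cycle genes, 148 of a list of 163 found in the files that load, escort, activate or bind Rab proteins, were higher for 56 and lower for 13 of 133 in the hatching gland, and higher for 44 and lower for 9 of 133 in the notochord. The list's median log2 change was 0.41 in the hatching gland and 0.24 in the notochord, and that of all genes −0.23 and −0.25. The shares of all genes called are those given above with the members.

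Loss of xbp1 lowered early secretory Rab genes in the hatching gland. Of the 45 members tested in hatching gland-like cells, 11 fell and none rose in the additive edgeR fit over all 16 libraries, which has terms for the 4 factors and the library set. Of all 8628 genes 9.11% were called, 7.3% lower and 1.81% higher. Of the early secretory members 6 of 12 fell, of the non-GTPases 2 of 4, and of exocytosis, early endosome and recycling members 1 of 4, 1 of 7 and 1 of 8. None of the late endosomal (5), ciliary (2), little-described (2) or lysosome-related (1) members passed the test. The members' median log2 change was −0.12, and that of all genes 0.01.

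The values are given in the order xbp1 crispant, xbp1+atf6 crispant, xbp1+creb3l2+creb3l1, quadruple 1 and quadruple 2, against the lowest, median and highest of the 11 libraries with xbp1 intact. For rab1ba they were 30.4, 34.9, 36.7, 29.6 and 38.3 CPM, against 47.2, 78.6 and 104 CPM. For rab2a they were 316, 311, 268, 328 and 279 CPM, against 384, 466 and 565 CPM. For rab6a they were 51.8, 39.8, 45.04, 44.9 and 48.98 CPM, against 61.3, 93.7 and 119 CPM. In all 3 genes every library lacking xbp1 lay below every library with it. The log2 fold changes were −1.23 ± 0.19 for rab1ba (SE; edgeR adjusted p = 0.00012), −0.73 ± 0.12 for rab2a (adjusted p = 0.000309) and −1.11 ± 0.15 for rab6a (adjusted p = 4.5e-05).

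The Golgi gene rab33ba changed most among these. It read 3.74, 4.22, 0.464, 2.69 and 3.38 CPM in libraries lacking xbp1, against 9.91, 12.9 and 17.6 CPM in libraries with it. The values without xbp1 rest on only 7, 7, 1, 3 and 6 UMIs. Again the groups did not overlap, and the log2 fold change was −2.28 ± 0.31 (edgeR adjusted p = 4.18e-05). The gene rab1ab read 203, 210, 147, 146 and 141 CPM without xbp1, against 186, 299 and 444 CPM with it. Here 1 library with xbp1 intact, a creb3l1 mutant, lay at 186 CPM, below the xbp1 and the xbp1+atf6 crispant. The change was −0.95 ± 0.15 (adjusted p = 0.000244). The sixth early secretory gene, rab43, averaged 1.39 ± 1.26 CPM without xbp1 (SD, n = 5) and 5.59 ± 3.26 CPM with it (n = 11), a log2 change of −1.86 ± 0.57 (edgeR adjusted p = 0.0477). Without xbp1 rab43 had only 5, 1, 6, 1 and 0 UMIs. The groups overlapped, as wild type 1 and the creb3l1 crispant, both with xbp1 intact, had only 1 UMI of rab43 each.

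Outside the early secretory role, rab5if read 611, 578, 509.8, 398 and 572 CPM without xbp1, against 675, 912 and 1307 CPM with it. The groups did not overlap and the log2 change was −0.91 ± 0.12 (edgeR adjusted p = 2.86e-05), the smallest adjusted p among the members. The other non-GTPase, rab3gap2, averaged 8.74 ± 2.55 CPM without xbp1 and 24.1 ± 5.52 CPM with it, again without overlap (−1.54 ± 0.26, adjusted p = 0.000449). The recycling relative rab11al averaged 1.72 ± 0.694 CPM, against 6.54 ± 2.25 CPM, without overlap (−1.87 ± 0.45, adjusted p = 0.0101). Without xbp1 rab11al had only 2, 3, 6, 2 and 2 UMIs. The early endosomal rab5c averaged 37.3 ± 2.04 CPM, against 56.3 ± 11.9 CPM, with overlap (−0.72 ± 0.16, adjusted p = 0.00471). The secretory granule gene rab3aa averaged 23.3 ± 11.8 CPM, against 38.1 ± 12.7 CPM, with wide overlap (−0.62 ± 0.19, adjusted p = 0.0442).

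**Figure D2:**
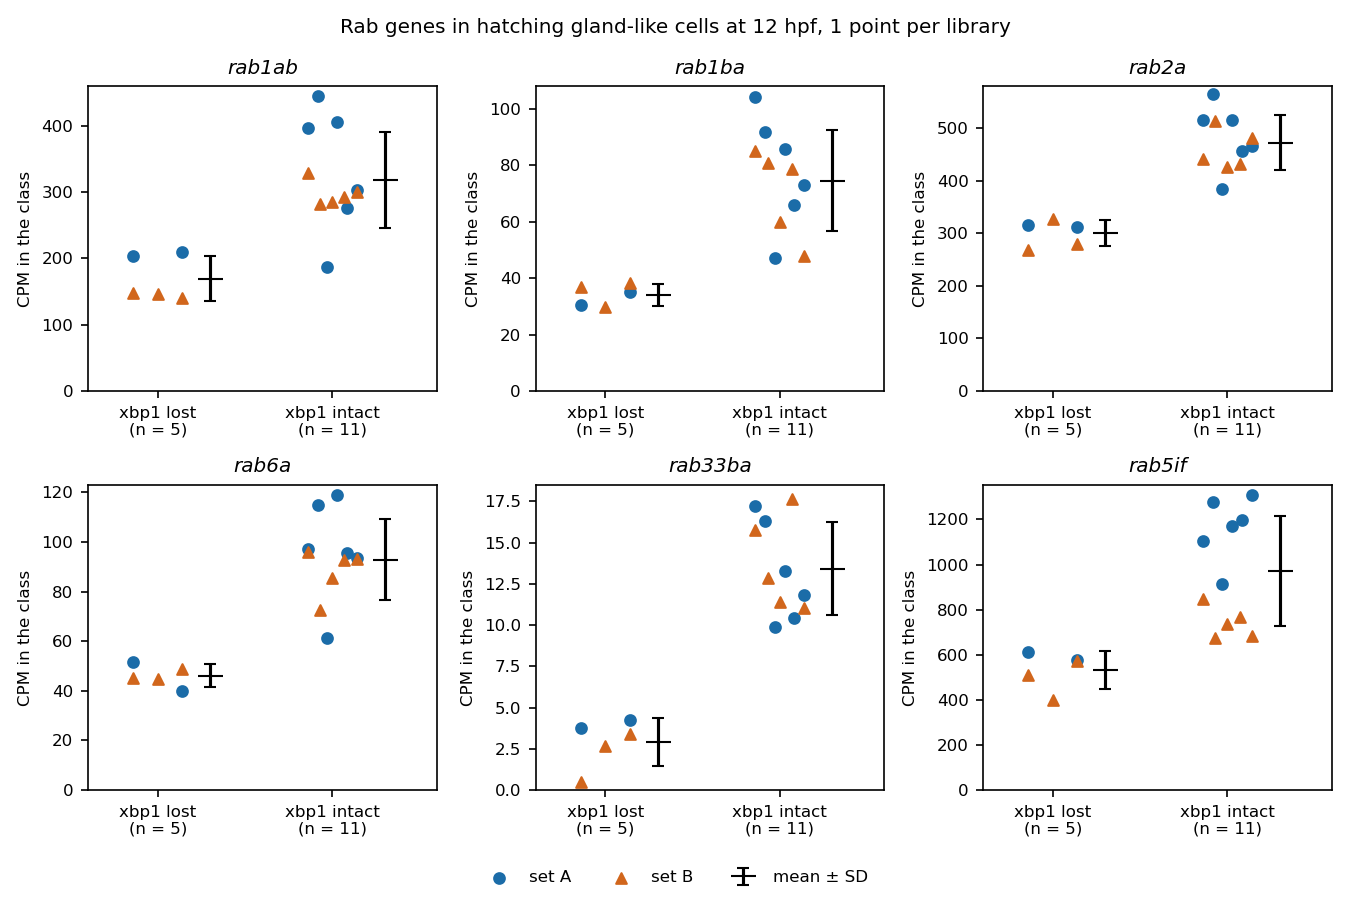
CPM of 6 Rab genes in hatching gland-like cells at 12 hpf, with 5 libraries lacking xbp1 on the left and 11 libraries with xbp1 on the right. Points are libraries, marked by library set, and bars are mean ± SD; only rab1ab has a library with xbp1 intact (186 CPM) inside the range of those without it.

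Both library sets gave the same direction. In set A (2 libraries lacking xbp1, 6 with it) the log2 ratio of mean CPM was −1.25 for rab1ba, −0.63 for rab2a, −1.08 for rab6a, −1.73 for rab33ba and −0.97 for rab5if. In set B (3 and 5 libraries) it was −1.01, −0.65, −0.93, −2.66 and −0.59 for the same genes. Every set B library lacking xbp1 also lacked creb3l1 and creb3l2, so the set B ratios cannot be assigned to xbp1 alone. Uninjected libraries all had xbp1 intact, and with a term for injection 11 members were again called. The calls of rab3aa and rab43 did not hold in 18 and 15 of 25 alternative fits, and that of rab11al was lost without the xbp1 crispant library, while the other 8 passed in all 25.

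Marker sums and class sizes overlapped between the groups, while hsp70l was higher in every library lacking xbp1. The summed level of 12 hatching gland markers spanned 34656 to 49633 CPM without xbp1 and 36568 to 46962 CPM with it, and that of 13 notochord markers 48.2 to 115 CPM and 78.3 to 141 CPM. Class sizes overlapped, at 38 to 85 cells without xbp1 and 31 to 144 with it. The heat-shock gene hsp70l reached 3.59 to 466 CPM without xbp1 and at most 2.13 CPM with it, and hsp70.3 spanned 12.6 to 706 CPM without xbp1 and 2.34 to 52.5 CPM with it, with overlap. Their part in the Rab result was not tested.

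Rab cycle genes fell in the same cells: 15 of 86 tested were lower without xbp1 and none higher. The shares of all genes lower and higher in this fit are those given above with the members. They included the tethers uso1 (−1.47 ± 0.19, edgeR adjusted p = 2.39e-05), golgb1 (−1.20 ± 0.17) and golga2 (−1.38 ± 0.27), which bind Rab1 at the Golgi, and rint1 (−2.02 ± 0.28) and zw10 (−1.49 ± 0.25), partners in a tethering complex. The list's median was −0.21, and that of all genes 0.01.

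In the notochord, loss of xbp1 gave no call among 47 members, where 0.237% of all genes were called (718 of 9280 at an unadjusted p under 0.05, and 1 member). DESeq2 called 1 member and so did the fit without a low-count filter. The smallest p belonged to rab5if (−0.50 ± 0.13, edgeR adjusted p = 0.164), rab6a (−0.25 ± 0.13, adjusted p = 0.668) and rab12, a late endosomal gene (0.32 ± 0.17, adjusted p = 0.695). In all other cells no member of 73 was called, where 0.0113% of genes were, and the smallest p belonged to rab9a (0.52 ± 0.12, adjusted p = 0.345), rab39ba (−1.01 ± 0.29) and rab39bb (−0.64 ± 0.23). There 6 members had an unadjusted p under 0.05 and DESeq2 called 1.

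The difference between the classes was itself tested, pairing hatching gland-like and notochord-like cells of the same library. For xbp1, 6 of 51 members had a more negative effect in the hatching gland and none a less negative one, where 3.22% and 0.505% of 10290 genes did (3.72% together). They were rab33ba (difference −1.95 ± 0.39, edgeR adjusted p = 0.00349), rab1ba (−1.12 ± 0.19, adjusted p = 0.000813), rab6a (−0.85 ± 0.15, adjusted p = 0.000804), rab1ab (−0.75 ± 0.13, adjusted p = 0.000734), rab2a (−0.71 ± 0.13, adjusted p = 0.00162) and rab5if (−0.40 ± 0.11, adjusted p = 0.0433). The rab5if difference passed in 9 of 23 alternative fits and the other 5 in all 23. Cycle genes that differed in the same direction included golgb1, uso1 and rabac1, a prenylated Rab acceptor.

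Loss of creb3l2 lowered rab2a, rab5aa, rab6a and rab1ab in the notochord. Of 47 members 4 fell and none rose, where 2.41% and 0.14% of 9280 genes did (2.55% together). In the order creb3l2 crispant, creb3l2+creb3l1, atf6+creb3l2+creb3l1, xbp1+creb3l2+creb3l1, quadruple 1 and quadruple 2, rab2a read 507, 296, 328, 288, 347 and 332 CPM. The 10 libraries with creb3l2 spanned 510 to 753 CPM with a median of 695 CPM. No library lacking creb3l2 reached them, but the creb3l2 crispant came close to the creb3l1 crispant at 510 CPM. The log2 fold change was −0.76 ± 0.11 (edgeR adjusted p = 0.000492), and the log2 ratio of means was −0.90 in set A and −0.94 in set B. Every set B library lacking creb3l2 also lacked xbp1 and creb3l1, so the set B ratio cannot be assigned to creb3l2 alone.

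The other 3 genes overlapped between the groups. The early endosomal rab5aa had a lowest, median and highest of 37.5, 60.3 and 130 CPM without creb3l2, against 77.4, 112 and 220 CPM with it (−1.10 ± 0.21, edgeR adjusted p = 0.00437). The Golgi gene rab6a had 87.9, 101 and 173 CPM, against 144, 182 and 267 CPM (−0.55 ± 0.13, adjusted p = 0.0258). For rab1ab they were 123, 180 and 272 CPM, against 205, 325 and 474 CPM (−0.53 ± 0.13, adjusted p = 0.0409). Next in order, rab33ba did not pass (−1.01 ± 0.28, adjusted p = 0.077).

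Of the 6 libraries lacking creb3l2 only the creb3l2 crispant had creb3l1 intact, so the separate terms rest on few libraries. Without that library 2 members were called in place of 4. The same held in turn without the xbp1 crispant, the xbp1+atf6 crispant, atf6+creb3l2+creb3l1, creb3l1 mutant 2 or the creb3l1 crispant. The call of rab2a passed in all 25 alternative fits and that of rab5aa in 24, the exception being the fit without the set term. Those of rab6a and rab1ab passed in 14 and 10. The sum of 13 notochord markers spanned 7657 to 12649 CPM without creb3l2 and 6024 to 12540 CPM with it, and the hatching gland marker sum 673 to 1006 and 746 to 1423 CPM. Among 84 cycle genes uso1 (−1.17 ± 0.20, edgeR adjusted p = 0.00194), rint1 (−1.40 ± 0.35), golgb1 (−0.65 ± 0.16) and rabgef1, an exchange factor for Rab5 (−0.86 ± 0.22), fell and none rose.

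In hatching gland-like cells no member of 45 was called for creb3l2, and none of all 8628 genes (0.0%); 363 genes and 3 members had an unadjusted p under 0.05, and DESeq2 called no member. The smallest p belonged to rab35b (0.42 ± 0.16), rab34a (−0.90 ± 0.37) and rab8b (0.63 ± 0.30), with edgeR adjusted p = 1.0 in all 3. In all other cells no member of 73 was called, where 0.0227% of genes were; rab33a (−0.52 ± 0.18, adjusted p = 0.655), rab12 (0.37 ± 0.15) and rab8b (0.35 ± 0.15) had the smallest p, 5 members had an unadjusted p under 0.05 and DESeq2 called none. The test between classes called 3 of 51 members with a less negative effect in the hatching gland than in the notochord and none the other way, where 1.81% and 0.0777% of genes were (1.89% together). These were rab2a (difference 0.80 ± 0.14, edgeR adjusted p = 0.00163), rab6a (0.79 ± 0.15, adjusted p = 0.00335) and rab1ab (0.59 ± 0.13, adjusted p = 0.0196). Without the creb3l2 crispant only 1 of them was called. For rab5aa the difference was 0.77 ± 0.20 (adjusted p = 0.0506). The cycle genes uso1, golgb1 and rabac1 differed in this direction too (3 of 96).

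**Figure D3:**
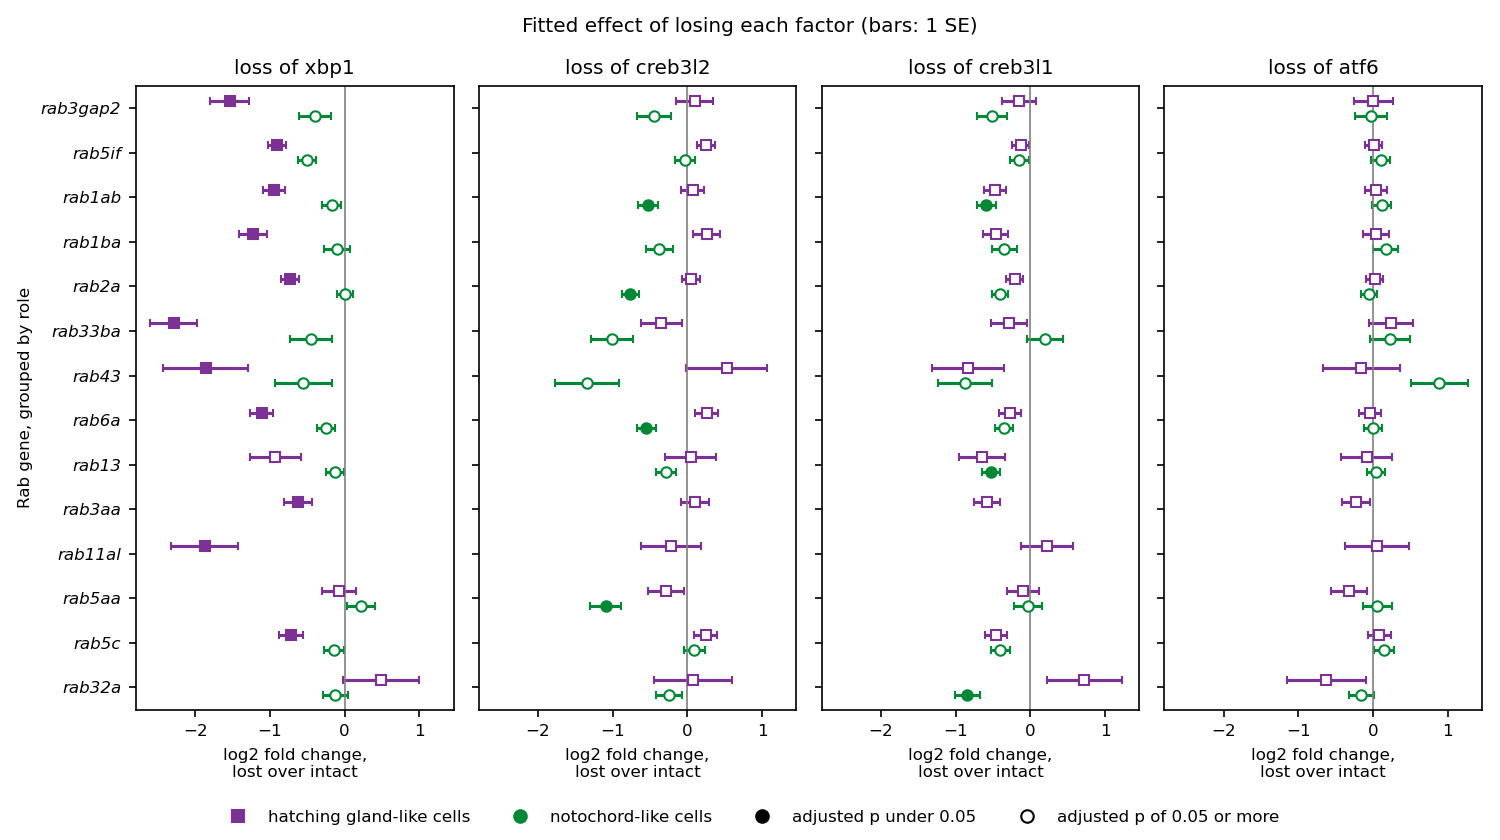
Log2 fold change ± 1 SE of Rab genes, with 1 panel for each lost factor, in hatching gland-like cells (squares) and notochord-like cells (circles); filled marks have an edgeR adjusted p under 0.05. Filled squares sit in the xbp1 panel, down to −2.28 for rab33ba, and filled circles in the creb3l1 and creb3l2 panels.

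Loss of creb3l1 lowered 3 of 47 members in the notochord and raised none, where 1.26% of genes fell and 0.183% rose (1.44% together). The lysosome-related rab32a had a lowest, median and highest of 64.7, 85.2 and 133 CPM in the 8 libraries lacking creb3l1, against 131, 177 and 244 CPM in the 8 with it. Only the creb3l1 crispant (133 CPM) reached the range of the other group. The log2 fold change was −0.84 ± 0.17 (edgeR adjusted p = 0.0171). For rab1ab the values were 123, 198 and 247 CPM, against 269, 341 and 474 CPM, without overlap (−0.59 ± 0.13, adjusted p = 0.0272). For rab13 they were 68.8, 86.3 and 101 CPM, against 104, 138 and 181 CPM, without overlap (−0.52 ± 0.12, adjusted p = 0.0345). Set A and set B gave log2 ratios of means of −1.05 and −0.89 for rab32a, −0.94 and −0.71 for rab1ab, and −0.66 and −0.62 for rab13. These ratios do not separate creb3l1 from the other factors lost in some of the same libraries.

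No member was called for creb3l1 in the notochord without creb3l1 mutant 1, creb3l1 mutant 2, the creb3l2 crispant or tyr crispant 2, and 1 was called without atf6+creb3l2+creb3l1. Without the creb3l2 crispant 9 genes were called in all, in place of 134. No cycle gene of 84 was called. The level of rab32a by combination ran from 85.7, 84.7 and 133 CPM in the creb3l1 mutants and the creb3l1 crispant to 171 CPM in the creb3l2 crispant, while the 5 libraries lacking both held 64.7 to 103 CPM.

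**Figure D4:**
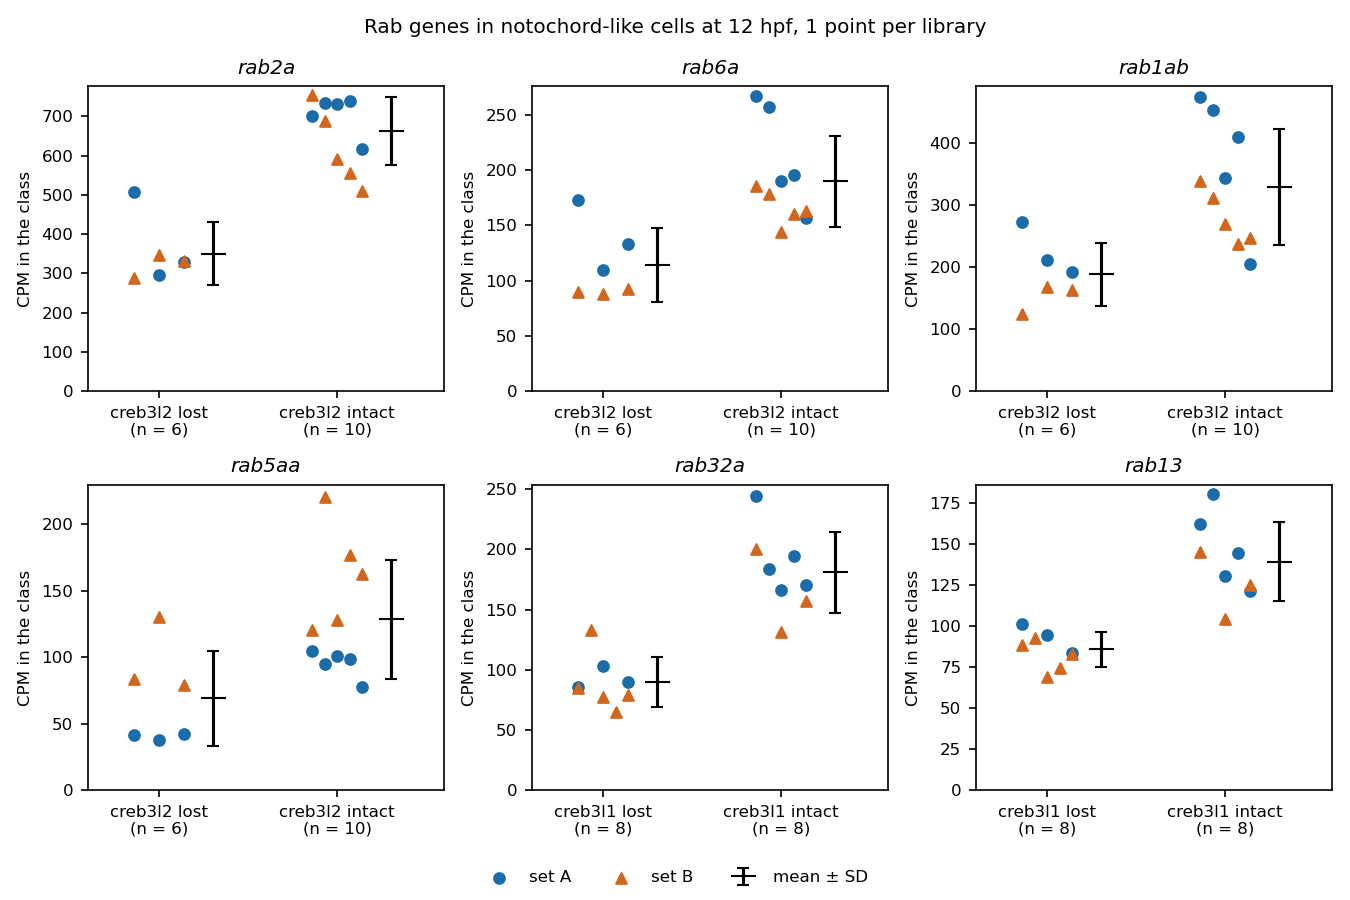
CPM in notochord-like cells at 12 hpf of rab2a, rab6a, rab1ab and rab5aa by loss of creb3l2 (6 libraries without, left; 10 with, right) and of rab32a and rab13 by loss of creb3l1 (8 without, left; 8 with, right). Points are libraries and bars mean ± SD; the groups do not overlap for rab2a and rab13.

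In hatching gland-like cells no member of 45 passed for creb3l1, where 1.09% of genes did (0.661% lower, 0.429% higher), and DESeq2 called none. The smallest p belonged to rab3aa (−0.58 ± 0.17, edgeR adjusted p = 0.111), rab1ab (−0.47 ± 0.15, adjusted p = 0.127) and rab5c (−0.46 ± 0.15, adjusted p = 0.147); 10 members had an unadjusted p under 0.05. In all other cells 2 of 73 fell and none rose, where 1.35% and 1.0% of genes did (2.36% together). The epidermal rab42b had a lowest, median and highest of 0.813, 2.22 and 4.32 CPM without creb3l1, against 3.65, 5.88 and 12.2 CPM with it (−1.88 ± 0.33, adjusted p = 0.0124). The recycling gene rab11ba had 24.2, 41.1 and 50.7 CPM, against 53.8, 67.0 and 90.2 CPM, without overlap (−0.64 ± 0.15, adjusted p = 0.0432). Neither was called without creb3l1 mutant 1 or without the creb3l2 crispant. Leaving out wild type 1 gave 8 calls, leaving out the creb3l1 crispant gave 11, and DESeq2 called 8. Leaving out the xbp1 crispant, xbp1+atf6 crispant, creb3l2+creb3l1, atf6+creb3l2+creb3l1, tyr crispant 2, wild type 2 or creb3l1 mutant 2 gave 1. The class difference was not called for any of 51 members, where 0.0389% of genes were; rab32a had the smallest p (1.69 ± 0.42, adjusted p = 0.129), ahead of rab5ab (−0.27 ± 0.14) and rab9a (−0.99 ± 0.49), 1 member had an unadjusted p under 0.05 and DESeq2 called none.

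For loss of atf6 no member was called in any class. Of all genes 0.0108% were called in the notochord, 0.0116% in the hatching gland and 0.00567% elsewhere, and 0.0% for the difference between classes. The members with an unadjusted p under 0.05 numbered 2, 1, 2 and 2, and DESeq2 called none in those 4 comparisons. The smallest p values in the notochord belonged to rab43 (0.88 ± 0.38), rab9a (−0.62 ± 0.28) and rab7a (0.27 ± 0.18), with edgeR adjusted p = 0.999 each. In the hatching gland rab20 (−0.72 ± 0.29), rab40c (0.31 ± 0.19) and rab33a (−0.53 ± 0.37), and elsewhere rab1bb (0.23 ± 0.10), rab3db (−0.47 ± 0.21) and rab8a (−0.26 ± 0.13), all had an adjusted p of 1.0. For the class difference they were rab7a (−0.57 ± 0.21), rab3aa (−1.57 ± 0.71) and rab5aa (−0.39 ± 0.19).

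With loss of all 4 factors 3 of 12 early secretory Rab genes tested fell in the notochord and 4 of 12 in the hatching gland, while the others of that role did not pass. All calls rest on both quadruple libraries, since leaving out either gave none in these classes. The 2 quadruple libraries were compared with the 2 tyr libraries, with wild type and creb3l1 mutants sharing the estimate of spread. Both quadruple libraries and tyr crispant 2 are of set B, and tyr crispant 1 is of set A. This fit had no set term, so any set difference enters the changes and their spread. In the notochord 4 of 45 members fell and none rose, where 2.5% and 0.0772% of genes did (2.58% together). There rab2a read 347 and 332 CPM in quadruple libraries, against 701 and 753 CPM in tyr libraries (−1.29 ± 0.29, edgeR adjusted p = 0.0316). The level of rab1ab was 167 and 163 CPM, against 474 and 339 CPM (−1.50 ± 0.31, adjusted p = 0.0211), and that of rab6a 87.9 and 92.0 CPM, against 267 and 186 CPM (−1.52 ± 0.32, adjusted p = 0.0246). The level of rab32a was 64.7 and 79.4 CPM, against 244 and 200 CPM (−1.82 ± 0.31, adjusted p = 0.00794).

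In the hatching gland 5 of 43 members fell and none rose, where 3.8% and 0.297% of genes did (4.1% together). There rab1ab read 146 and 141 CPM in quadruple libraries, against 397 and 328 CPM in tyr libraries (−1.60 ± 0.30, edgeR adjusted p = 0.0103). The level of rab33ba was 2.69 and 3.38 CPM, against 17.2 and 15.8 CPM (−2.64 ± 0.50, adjusted p = 0.0105), and that of rab1ba 29.6 and 38.3 CPM, against 104 and 84.8 CPM (−1.73 ± 0.36, adjusted p = 0.0181). In the quadruple libraries rab33ba rested on 3 and 6 UMIs. The level of rab6a was 44.9 and 48.98 CPM, against 97.4 and 96.2 CPM (−1.30 ± 0.30, adjusted p = 0.033), and that of rab5if 398 and 572 CPM, against 1104 and 845 CPM (−1.28 ± 0.32, adjusted p = 0.0496). Of 86 cycle genes 8 fell there, among them zw10 (−2.01 ± 0.40) and rint1 (−2.08 ± 0.48), and of 81 in the notochord none was called.

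Elsewhere no member of 72 was called, where 0.331% of genes were (0.0349% higher, 0.296% lower); rab34b (1.88 ± 0.37, edgeR adjusted p = 0.0787), rab3ip (−1.15 ± 0.35) and rab11ba (−0.93 ± 0.30) had the smallest p, 7 members had an unadjusted p under 0.05 and DESeq2 called 1. These counts rest on 2 libraries a side. Without tyr crispant 1 the counts were 0 in the notochord and 1 in the hatching gland. Without wild type 1 the hatching gland count was 3. Library totals in place of TMM factors put the median of all genes at 0.21 in place of 0.02 in the notochord and at 0.27 in place of 0.02 in the hatching gland, and left 2 calls in each, all lower.

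At 8 hpf 8 of 15 early secretory Rab genes read at least 2-fold higher with creb3l1-N mRNA, and 8 of 15 with creb3l2-N, among them rab6a, rab1ab and rab2a in both, and none read 2-fold lower. The library with atf6-N had 1 of 15 past this fold, and read higher for rab3ip and rab5if. With 1 library per group there is no test, and over all cells more cells of a type and more RNA per cell cannot be told apart. A member is counted when its CPM ratio to mCherry was at least 2 or at most 0.5 with at least 20 UMIs in both libraries together. The 3 N-terminal mRNAs share 1 mCherry library, so their values are set side by side only. The injected gene was high in each: atf6 at 415 CPM with atf6-N, against 48.4 CPM with mCherry, creb3l1 at 237 CPM with creb3l1-N, against 6.097 CPM, and creb3l2 at 399 CPM with creb3l2-N, against 13.97 CPM.

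With creb3l2-N 18 of 72 members were past the fold upward and 2 downward, where 14.9% and 7.54% of genes were. Of the 15 early secretory members 8 were past the fold upward and none downward, with ratios between 0.656 for rab33a and 8.53 for rab43. The Golgi gene rab6a read 81.6 CPM (95% exact Poisson interval 79.8 to 83.5, which covers counting error only), against 13.7 CPM with mCherry (12.8 to 14.7), a ratio of 5.94. The mCherry library at 125 pg, without a crispant mutation, read 22.1 CPM of rab6a. The ratios of others in this role were 8.53 for rab43 (18.5 against 2.17 CPM), 5.71 for rab33ba (33.2 against 5.81 CPM), 5.13 for rab1ba (71.8 against 13.99 CPM) and 3.51 for rab1ab (262 against 74.6 CPM). The largest ratios of all members lay outside that role, at 33.7 for rab11al (10.9 against 0.325 CPM) and 9.74 for rab11fip1b (1.66 against 0.171 CPM). Of the others named, rab3il1 had a ratio of 4.80, rab3gap1 of 4.28, rab11fip2 of 4.01 and rab4a of 3.89, and rab11fip4b one of 0.395. With mCherry rab11al, rab11fip1b, rab3gap1 and rab11fip2 had only 19, 10, 19 and 19 UMIs.

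With creb3l1-N 16 of 71 were past the fold upward and 2 downward, where 13.1% and 3.78% of genes were. Among the early secretory members rab18a (48.4 against 55.7 CPM) and rab1bb (6.57 against 6.59 CPM) did not read higher. Nor did rab30, rab33a and rab6ba, the last with the lowest ratio of the role at 0.787. The highest of all members were rab11al at a ratio of 29.9 (9.69 against 0.325 CPM), rab43 at 12.98 (28.2 against 2.17 CPM) and rab11fip1b at 9.73. The mCherry values of rab11al and rab11fip1b again rested on 19 and 10 UMIs. Then came rab4a at 4.32, rab27a, a gene of regulated exocytosis, at 4.16, rab6bb at 3.84 and rab1ab at 3.76 (281 against 74.6 CPM). The series went on with rab33ba at 3.72, rab3il1 at 3.68, rab41 at 3.39 and rab1ba at 3.26, and rab11fip4b lay at 0.463. The abundant rab2a read 676 CPM with creb3l1-N and 573 CPM with creb3l2-N, against 253 CPM with mCherry.

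With atf6-N 10 of 72 were past the fold upward and 2 downward, where 14.5% and 4.47% of genes were. The largest ratio belonged to rab3ip, which encodes an exchange factor for Rab8: it read 52.2 CPM (50.5 to 54.004), against 1.11 CPM with mCherry (0.857 to 1.41), a ratio of 47.04. With creb3l1-N and creb3l2-N it read 0.972 and 1.29 CPM. The gene rab5if stood at 881 CPM with atf6-N, against 202 CPM with mCherry, a ratio of 4.36, while it read 218 CPM with creb3l1-N and 196 CPM with creb3l2-N. The other ratios were 8.11 for rab25b, 4.84 for rab15, 3.66 for rab11fip2, 3.45 for rab7b, 3.27 for rab11fip5a, 3.02 for rab1ba (42.2 against 13.99 CPM), 2.30 for rab11al and 2.10 for rab4a, and downward 0.428 for rab42b and 0.367 for rab3da. With mCherry rab25b, rab15, rab11fip2, rab11fip5a and rab11al had only 10, 7, 19, 12 and 19 UMIs. The mCherry library at 125 pg read 1.05 CPM of rab25b, against 0.171 CPM in the one used here. With atf6-N rab2a read 241 CPM, against 253 CPM with mCherry, and rab33ba 5.64 CPM, against 5.81 CPM.

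With creb3l2-full at 40 pg, against mCherry at 125 pg, 1 of 69 was past the fold upward and none downward, where 4.24% and 2.35% of genes were. That gene, rab3c, rested on 17 UMIs, against 8 with mCherry. The ratios were 1.54 for rab6a, 1.53 for rab33ba, 1.52 for rab1ba and 1.31 for both rab1ab and rab2a. The mCherry libraries themselves read 22.1 CPM of rab6a at 125 pg and 13.7 CPM at 40 pg in xbp1 crispants. In the same order they read 5.50 and 5.81 CPM of rab33ba and 15.2 and 13.99 CPM of rab1ba. For rab1ab they read 82.8 and 74.6 CPM, and for rab2a 261 and 253 CPM. Doses differ between these libraries, and the full-length mRNA level was lower than that of creb3l2-N (72.6 CPM of creb3l2, against 9.47 CPM with its mCherry).

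**Figure D5:**
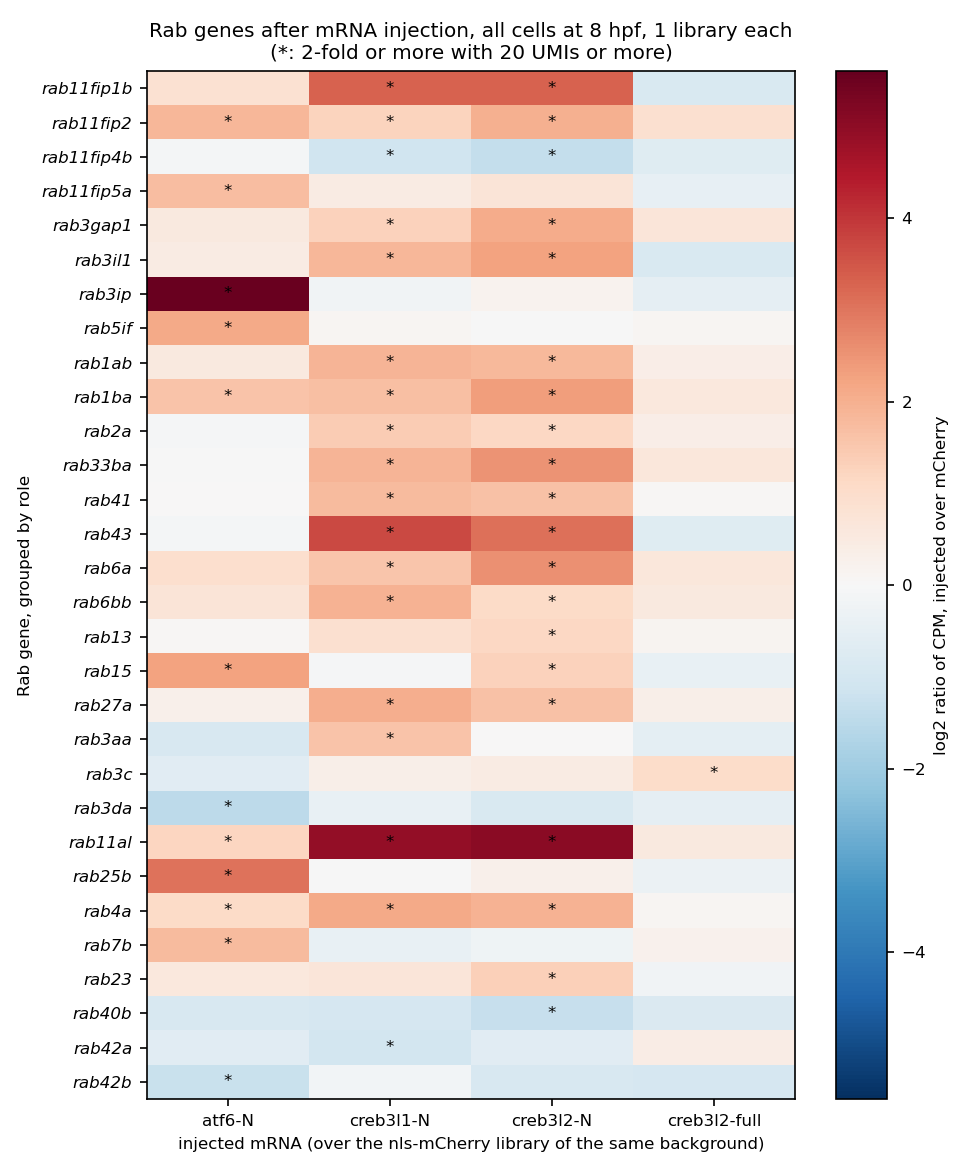
Log2 CPM ratio to mCherry at 8 hpf of each Rab gene past 2-fold in at least 1 of the 4 comparisons, over all cells, 1 library per group; an asterisk marks a value past the fold. The creb3l1-N and creb3l2-N columns are high for rab11al, rab43, rab33ba and rab1ab, and the atf6-N column for rab3ip and rab5if.

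Leaving out notochord-like and hatching gland-like cells, a choice made after seeing the data, changed the counts little at 8 hpf. The counts upward and downward were 10 and 2 for atf6-N, 16 and 1 for creb3l1-N, 18 and 3 for creb3l2-N and 1 and 0 for creb3l2-full. In those remaining cells rab3ip had a ratio of 44.3 with atf6-N and rab6a one of 6.02 with creb3l2-N. Over all cells 30 of 132 cycle genes were past the fold upward and 5 downward with creb3l2-N, against 2500 and 1265 of 16772 genes. The counts with creb3l1-N were 22 and 5 of 129, against 2169 and 624 of 16509 genes. Those with atf6-N were 23 and 1 of 130, against 2409 and 741 of 16565 genes. For creb3l2-full they were 3 and 2 of 125, against 634 and 351 of 14954 genes.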

How the data were processed

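The authors deposited 1 matrix per library of unnormalized UMI counts, written by Cell Ranger 3.1.0 (set A, 8 libraries at 12 hpf) or 6.1.2 (set B, 8 libraries at 12 hpf, and the 6 at 8 hpf), per the file headers. The set letter comes from the file names. The genome build and how reads of near-identical paralogs were counted are not given in the sources used here, so values of such copies are uncertain. Another 8 of the 30 libraries were not analysed here. Of the 77 members, 59 have the same symbol in the reference table.

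Barcodes under 1000 UMIs or over 10% mitochondrial UMIs were removed, as were the highest scrublet scores at 0.8% per 1000 barcodes, leaving 62153 cells of the later and 18831 of the earlier stage. Clustering used scanpy 1.11.5 (2000 variable genes, 40 components, 15 neighbours, Leiden resolution 2) without Rab, Rab cycle, secretory and targeted genes, and clusters were named from marker lists. Rebuilt classes may differ from the authors' own. UMIs were summed per library and class.

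The test was edgeR 4.0.16's two-sided quasi-likelihood test with TMM, filterByExpr and Benjamini-Hochberg adjustment over all genes, called under 0.05. SEs were taken from the F statistic. Effects are assumed to add on the log2 scale. The fit was checked on simulated counts with known changes. Alternatives were RLE factors, library totals, no filter, DESeq2 1.42.0, doublets kept, no set term, an injection term, a replicate block, leaving out each library, and, chosen after seeing the data, set A only and no low-UMI clusters. Members and lists were chosen with earlier results of these data known. In tested comparisons up to 12 called members were named, or else the 3 of smallest p, and at 8 hpf up to 12 by ratio. In tissues, the 5 highest members, the highest of each role and the 3 of largest ratio per class were read. A few cycle genes and values of members across comparisons were named after their values were seen. One gene of the Rab cycle list is included in the list's counts but not reported here by name.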

Additional observations from a re-analysis of the deposited data

Results flagged for a closer look

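The effects below differed between hatching gland-like and notochord-like cells of the same libraries in a test of the difference itself (edgeR, hatching gland minus notochord, log2). For loss of xbp1 the difference was −1.95 for rab33ba, −1.12 for rab1ba, −0.85 for rab6a, −0.75 for rab1ab, −0.71 for rab2a and −0.40 for rab5if. For loss of creb3l2 it was 0.80 for rab2a, 0.79 for rab6a and 0.59 for rab1ab. The genes rab2a, rab6a and rab1ab differed under both losses, in opposite directions. The 2 terms come from the same fit and libraries.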

How the results depend on the processing

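No named member changed sign under any alternative. Of the values of single members under the alternatives, 1655 kept their side of the threshold, 161 lost it and 10 crossed it. Counts of members called are given below. The cause of each change was not tested, also where other libraries or genes entered the fit. For loss of xbp1 in the notochord the count was 1 without a low-count filter and 1 by DESeq2, in place of 0, and in all other cells 1 by DESeq2, in place of 0. For loss of creb3l2 in the notochord it was 2 with library totals, 2 without a filter, 1 without the set term and 2 in set A only, in place of 4. For loss of creb3l1 it was 1 without a filter and 2 in set A only in the hatching gland, in place of 0. In all other cells it was 8 by DESeq2, 1 without the set term, 1 with an injection term and 4 in set A only, in place of 2, and for its class difference 1 without a filter, in place of 0. For quadruple against tyr it was 2 with library totals in the notochord, in place of 4. In the hatching gland it was 2 with library totals and 11 without a filter, in place of 5, and in all other cells 1 without a filter and 1 by DESeq2, in place of 0. At 8 hpf a 1.5-fold limit gave 20 higher and 9 lower members for atf6-N, 7 lower for creb3l1-N, 10 lower for creb3l2-N, and 6 higher and 9 lower for creb3l2-full. The creb3l1-N count of lower members was 1 with TMM factors, 1 with doublets kept and 1 without notochord-like and hatching gland-like cells. For creb3l2-full 0 were higher with doublets kept, and 1 was lower with a minimum of 10 UMIs.

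Leaving out 1 library at a time gave 8 to 13 members for xbp1 in the hatching gland, 2 to 4 for creb3l2 and 0 to 4 for creb3l1 in the notochord, 0 to 1 for creb3l1 in the hatching gland and 0 to 11 in all other cells. The class difference gave 5 to 6 for xbp1 and 1 to 4 for creb3l2. Quadruple against tyr gave 0 to 5 in the notochord, 0 to 6 in the hatching gland and 0 to 1 elsewhere. The hatching gland against other cells gave 26 to 36 and the notochord 28 to 33. Over all genes, creb3l1 called 416 in all other cells, against 1023 by DESeq2, 275 without the set term and 1028 in set A only. In the notochord it called 134, against 394 without a filter and 84 with an injection term, and in the hatching gland 94, against 497 without a filter and 38 without the set term. For xbp1 the hatching gland gave 786, against 515 in set A only. Quadruple against tyr without a filter gave 484 calls in the notochord (over 1.5 times the filtered count), 741 in place of 345 in the hatching gland and 408 in place of 57 elsewhere. The notochord gave 237 for creb3l2, against 153 without the set term, and 22 for xbp1, against 230 without a filter. Same-numbered libraries deviated together with correlations between −0.30 and 0.40, so the numbers do not pair them. With a replicate block the quadruple counts were 4 in the notochord, 4 in the hatching gland and 0 elsewhere, and rab6a (−1.30) and rab5if (−1.25) lost their call in the hatching gland.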
